A study of Rattus norvegicus with 12 samples.

Results

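The offspring of protein-restricted dams that were themselves reared on the control diet (mLP-CN) were compared with the offspring of control dams reared on the same diet (mCN-CN). The arrays were chosen by their labels alone, which gave 6 of the 12 arrays of the series, 3 in each group. All of them carried kidney DNA from male stroke-prone spontaneously hypertensive rats (SHRSP), which develop severe hypertension, at 6 weeks of age. Pregnant mLP dams received a diet with 9% casein and mCN dams the control (CN) diet with 20% casein. After delivery every dam and pup of both groups received the CN diet, and the pups stayed on it after separation from the dams until the kidneys were taken. The diet in pregnancy was thus what set the groups apart by design. Replicates 1 to 3 were mCN-CN and replicates 4 to 6 were mLP-CN. The labels do not say from how many litters the pups came. The p-values therefore measure only the spread between arrays, which the main fit took from all 12 arrays of the series.

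DNA methylation is the addition of a methyl group to cytosine, in mammals mostly where a guanine follows. In promoters rich in such sites it is usually absent, and where it is present the gene downstream is usually silent. The marks are copied when cells divide, which is why the diet of a pregnant mother has been studied as a source of lasting differences in the kidney, an organ that sets blood pressure through salt and water balance. In methylated DNA immunoprecipitation on a chip (MeDIP-chip), fragments that carry 5-methylcytosine are captured with an antibody. They are labeled with Cy5 and hybridized together with untreated input DNA labeled with Cy3, so that a higher log2(Cy5/Cy3) stands for more methylation around a probe. All arrays had the dyes in this orientation. The value is relative, since 0 is the middle of each array. Kidney tissue holds many cell types, and a change in methylation and a change in the mix of cells cannot be told apart.

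Joining probes that start within 1000 bp of each other gave 16055 tiled regions with at least 3 probes each, on the rat build rn4. Each is called a promoter here, although a long one can hold several neighboring promoters. The files pair no probe with a gene and hold no probe sequence, so promoters are given by position. The input signal was alike in the groups, with array medians of 148 to 165 (raw Cy3 intensity) for mCN-CN and 151 to 166 for mLP-CN. The MeDIP signal was not. Its medians were 151, 138, and 129 (raw Cy5 intensity) on mCN-CN replicates 1, 2, and 3 and 98.5, 103, and 94 on mLP-CN replicates 4, 5, and 6. Every mLP-CN array was dimmer than every mCN-CN array, including replicate 3, which was scanned together with the 3 mLP-CN arrays. Replicates 1 and 2 formed a scan of their own. The spread of the log2 ratio over probes also differed, with an SD of 0.780 to 0.792 on the mCN-CN arrays and 0.628 to 0.644 on the mLP-CN arrays before quantile normalization, a step that gives every array the same distribution. Replicate 3 had 16509 spots with an outlier flag, against 170 to 1805 on the other 5 arrays, and these spots were left out after normalization. Differences below are therefore differences in rank within an array, and a drop shared by all promoters would not be seen.

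Compared with the mCN-CN group, the mLP-CN group had 388 higher and 283 lower promoters (limma with all 12 arrays, Benjamini-Hochberg adjusted p under 0.05), which is 2.42% and 1.76% of those tested and 4.18% together. The median difference in the log2 ratio was 0.24 among the higher promoters and −0.25 among the lower ones. Over all promoters it was −0.003. At an unadjusted p under 0.05 there were 3627 promoters. Whatever the p, all 3 mLP-CN arrays lay above all 3 mCN-CN arrays in 13.7% of the promoters and below them in 12.0%. These counts moved with each of the 6 arrays. Without mCN-CN replicates 1, 2, and 3 the total of 671 became 26, 74, and 2050, and without mLP-CN replicates 4, 5, and 6 it became 80, 384, and 58. With limma and Agilent's own background-corrected and dye-normalized signals 0 promoters passed (373 at an unadjusted p under 0.05), and after loess normalization within each array, which removes a dependence of the ratio on brightness, 0 passed as well (972 unadjusted). The split of calls moved too. Higher promoters were 57.8% of the calls in the first fit, 7.29% with median centering in place of quantile normalization, 0.758% when dim probes were removed, 47.3% in the authors' own table, 33.8% when outlier spots were removed before normalization, and 4.40% with the spread of the arrays set equal. The median difference of all promoters was −0.08 with median centering, −0.10 without dim probes, −0.03 in the authors' table, −0.02 with outlier spots removed first, and −0.10 with equal spread.

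The promoters called higher and those called lower were of very different brightness. In the 388 higher promoters the median Cy5 intensity was 39.5, 37.8, and 38.5 on the mCN-CN arrays and 34.5, 35.6, and 34.2 on the mLP-CN arrays. These raw values include the local background. Its median Cy5 over all probes was 15, 15, and 19 on the mCN-CN arrays and 19, 19, and 20 on the mLP-CN arrays. The Cy5 signal of these promoters was thus no higher in the mLP-CN group, and it was their normalized ratio that differed. That ratio had medians of −0.23, −0.21, and −0.15 on the mCN-CN arrays and 0.07, 0.004, and 0.05 on the mLP-CN arrays. In the 283 lower promoters the median Cy5 intensity was 374.5, 337, and 309 on the mCN-CN arrays and 208, 228, and 202 on the mLP-CN arrays, with Cy3 at 293 to 319 and 308.5 to 337. Their normalized ratio had medians of 0.16, 0.18, and 0.13 on the mCN-CN arrays and −0.13, −0.09, and −0.13 on the mLP-CN arrays. With background included, the median Cy5 intensity of the groups thus differed less in the higher promoters than over all promoters, and more in the lower ones. In dim promoters the background is a large part of this intensity, so the comparison does not carry over to the signal above background. After loess within each array the median difference shrank to 0.06 in the higher promoters and −0.11 in the lower ones.

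**Figure D1:**
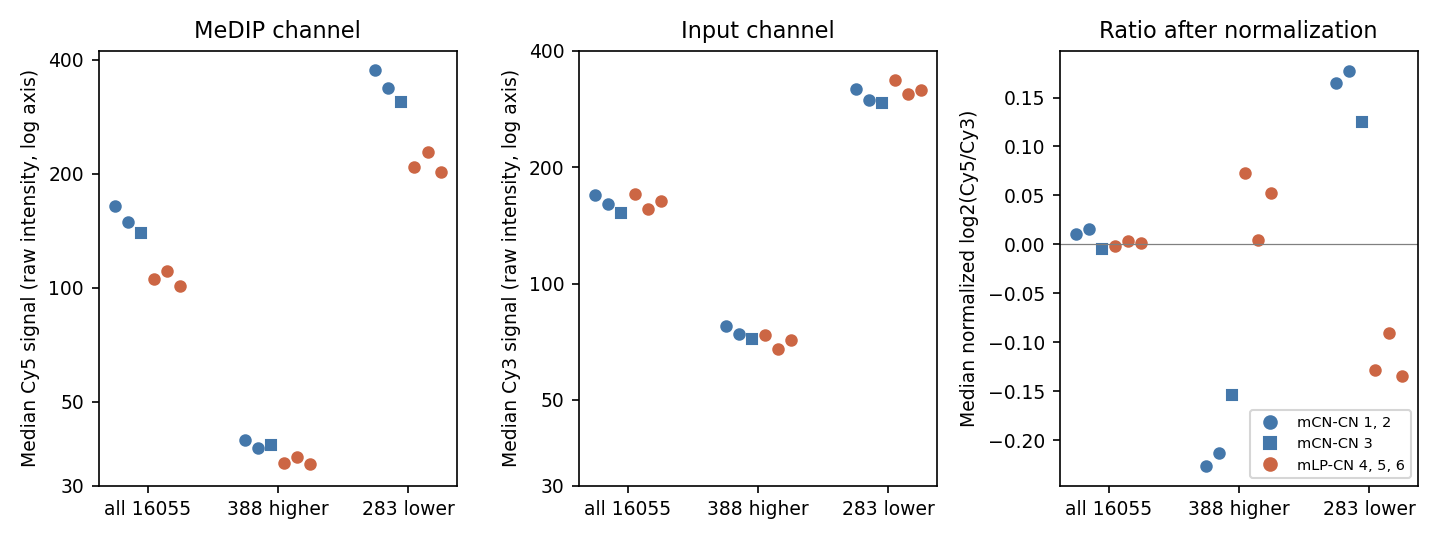
Median raw Cy5 intensity (left), raw Cy3 intensity (middle), and normalized log2(Cy5/Cy3) (right) on each of the 6 arrays, over all 16055 promoters, the 388 called higher, and the 283 called lower in the mLP-CN group. Blue marks are mCN-CN arrays, with a square for replicate 3, and orange marks are mLP-CN arrays. The higher promoters lie between 34.2 and 39.5 in Cy5 on every array, and the lower ones between 202 and 374.5.

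Of the lower promoters, the one with the largest difference lay on chromosome 8 at 115139408 to 115141098 (9 probes). Its log2 ratio was 0.06, 0.12, and 0.36 on mCN-CN replicates 1, 2, and 3 and −0.22, −0.19, and −0.46 on mLP-CN replicates 4, 5, and 6. Every mLP-CN array was below every mCN-CN array. The group means were 0.18 ± 0.16 and −0.29 ± 0.15 (SD, n = 3). They differed by −0.47 with a standard error of 0.08 (limma, adjusted p = 0.00765). The raw Cy5 intensity was 733, 666, and 492 in the mCN-CN group and 424, 403.5, and 384 in the mLP-CN group, while Cy3 was 678, 548, and 406 against 607.5, 574.5, and 528. With each channel normalized on its own, the difference between the groups was 0.01 in Cy5 and 0.22 in Cy3 (log2). Replicate 3, which had the highest ratio, lacked 4 of the 9 probes, since these spots carried an outlier flag. Along the promoter the difference was not even. It was negative in 7 of the 9 probes, down to −0.96 at a probe 664.5 bp from the center, and reached 0.28 at another probe near the opposite end.

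The next lower promoter was on chromosome 11 at 82552308 to 82553209 (5 probes). The mCN-CN arrays had log2 ratios of 0.04, 0.03, and 0.23 and the mLP-CN arrays had −0.26, −0.33, and −0.50, so that the groups again did not overlap. Limma gave −0.46 (standard error 0.09, adjusted p = 0.0104), and all 5 probes were lower. This was a bright promoter, with 96.7% of its probe and array pairs well above background in both channels. Its Cy5 intensity was 338, 284, and 294.5 on the mCN-CN arrays and 205, 204, and 187 on the mLP-CN arrays, and Cy3 was 452, 400, and 381 against 508, 531, and 475. The channels normalized on their own differed by −0.09 in Cy5 and 0.12 in Cy3. Replicate 3 lacked 2 of the 5 probes. Without mLP-CN replicate 6 the adjusted p was 0.0636.

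The largest rise among promoters with at least 50% of their probe and array pairs above background was on chromosome 13 at 40573416 to 40573949 (3 probes). Its log2 ratio was 0.23, 0.34, and 0.15 on the mCN-CN arrays and 0.69, 0.60, and 0.76 on the mLP-CN arrays. No arrays overlapped, and limma gave a difference of 0.44 (standard error 0.08, adjusted p = 0.00838). The raw signals did not separate the groups. Cy5 was 68.5, 57.0, and 56.5 on the mCN-CN arrays and 39.0, 53.0, and 57.0 on the mLP-CN arrays, and Cy3 was 78.5, 74.0, and 59.0 against 49.0, 65.0, and 60.0. The unnormalized Cy5 over Cy3 was 0.873, 0.770, and 0.958 in the mCN-CN group and 0.796, 0.815, and 0.950 in the mLP-CN group, which overlap. Over all probes, in contrast, the median Cy5 was lower on the mLP-CN arrays while the median Cy3 was alike. With each channel normalized on its own, this promoter differed by 0.0009 in Cy5 and −0.12 in Cy3. Without mCN-CN replicate 1 the adjusted p was 0.0533, and without mLP-CN replicate 6 it was 0.0529.

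A second promoter of chromosome 13, at 67877001 to 67878523 (9 probes), had log2 ratios of −0.20, −0.19, and −0.007 in the mCN-CN group and 0.30, 0.21, and 0.22 in the mLP-CN group. Limma gave 0.37 (standard error 0.06, adjusted p = 0.00754), with 8 of 9 probes higher. On chromosome X, the promoter at 33988683 to 33989940 (7 probes) had 0.27, 0.34, and 0.29 in the mCN-CN group and 0.76, 0.55, and 0.60 in the mLP-CN group. Here limma gave 0.34 (standard error 0.06, adjusted p = 0.00855), with 6 of 7 probes higher. Both promoters were dim, with Cy5 intensities of 44.5 to 65 on all 6 arrays. The unnormalized Cy5 over Cy3 of the chromosome 13 promoter was 0.917, 0.885, and 0.924 in the mCN-CN group and 0.850, 0.927, and 0.700 in the mLP-CN group. For the X promoter it was 1.04, 1.30, and 1.07 against 0.966, 1.06, and 0.968. In both the groups overlapped, and the mLP-CN values were lower on average. The channels normalized on their own differed by 0.04 in Cy5 and −0.10 in Cy3 at the former promoter and by 0.15 and 0.05 at the latter. Without mCN-CN replicate 1 their adjusted p was 0.0533 and 0.0539. With Agilent's processed signals and after loess, none of the 5 promoters passed the threshold, although each kept its direction. The difference with processed signals and after loess was −0.17 and −0.23 on chromosome 8, −0.33 and −0.25 on chromosome 11, 0.24 and 0.17 and then 0.35 and 0.15 at the promoters of chromosome 13, and 0.10 and 0.10 on X. Median centering in place of quantile normalization gave an adjusted p of 0.105 for the first chromosome 13 promoter and 0.165 for that of X. Removal of dim probes gave 0.0920 for the second one of chromosome 13. The first one, left with fewer than 3 probes, could not be tested without dim probes.

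**Figure D2:**
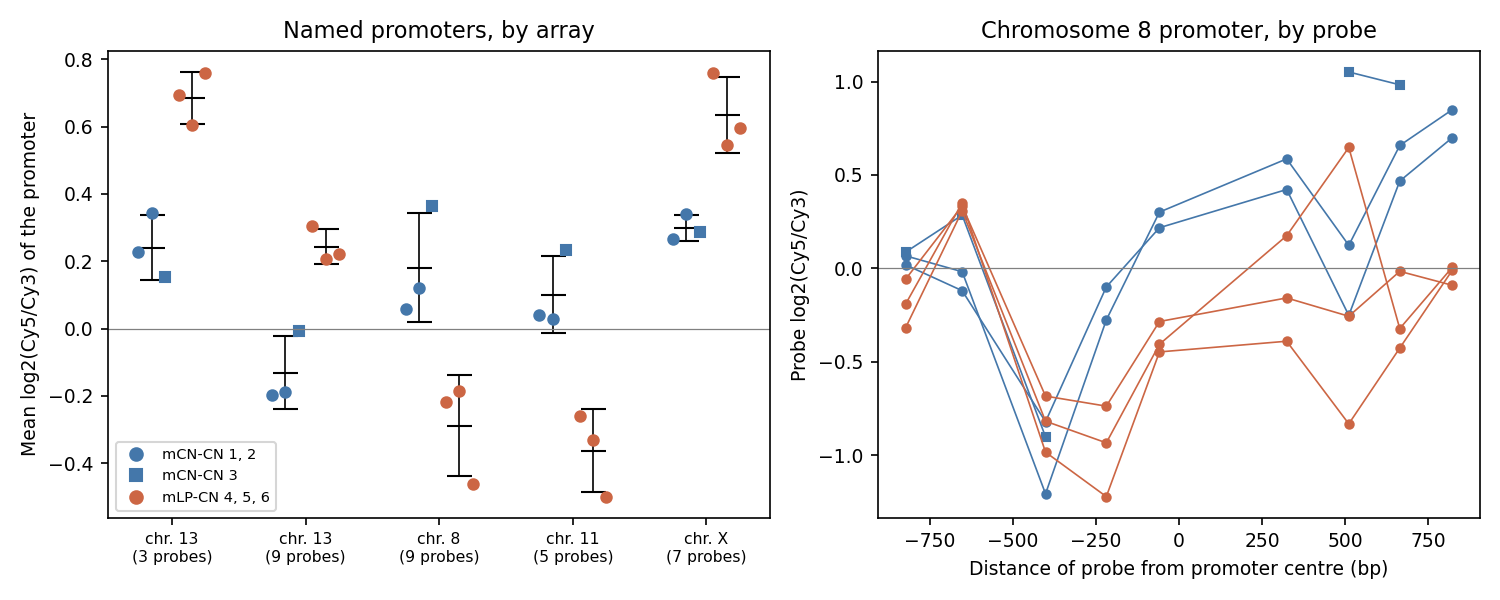
Left, mean log2(Cy5/Cy3) of the 5 promoters described, with 1 point per array and bars for the group mean ± SD (n = 3). Right, log2(Cy5/Cy3) of the 9 probes of the chromosome 8 promoter against their distance from its center, with 1 line per array and outlier-flagged spots of replicate 3 left out. The groups do not overlap at any of the 5 promoters, and at the chromosome 8 promoter the mean difference is above 0 at the probes at −653 and −402 bp and below 0 at the other 7.

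Replicate 3 allowed a comparison inside the scan that held all mLP-CN arrays. With the scan as a block, limma placed 539 promoters above replicate 3 in the mLP-CN group and 603 below it, which is 3.36% and 3.76% of those tested and 7.11% together (4025 at an unadjusted p under 0.05). This comparison rests on 1 control array. The same fit compared replicate 3 with the 2 control arrays of the other scan, so that diet was equal and scan was not. It called 750 promoters higher and 1229 lower in replicate 3, or 4.67% and 7.65% and together 12.3% (4648 unadjusted). Both comparisons rest on replicate 3, so that neither scan nor diet can be told apart from this array. In the promoters placed above it, the median difference of the mLP-CN group was 0.26 from replicate 3 and 0.11 from replicates 1 and 2. In those placed below it, these medians were −0.27 and −0.09. Replicate 3 itself differed from replicates 1 and 2 by medians of −0.16 and 0.19 in these promoters. Of the 539 higher promoters 387 had at least 50% of their probe and array pairs above background, whereas of the 388 in the fit without the scan 119 did. Over all promoters it was 14076 of 16055. Of the lower promoters 596 of 603 reached this level within the scan and 283 of 283 without the scan. Against replicate 3 the chromosome 8 promoter differed by −0.65 (standard error 0.09) and the chromosome 11 promoter by −0.60 (standard error 0.08). Replicate 3 entered with the 5 and 3 probes that it retained, and the mLP-CN arrays with all probes. These differences are therefore not taken over the same probes. Against replicate 3 the higher promoters described differed by 0.53 and 0.25 on chromosome 13 and by 0.35 on chromosome X. On X, replicate 3 lacked 1 of the 7 probes and mLP-CN replicate 6 another, so that difference too is not taken over the same probes. These values are a description, since they share replicate 3 and the mLP-CN arrays with the first fit, and the promoter of X was picked for passing in both.

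The calls were unevenly spread over classes of signal. Among the 311 promoters in which at most 25% of the probe and array pairs were well above background, 29.9% were called higher and 0% lower. Of the 7486 promoters with over 75% of pairs above background, 0.0935% were called higher and 3.49% lower. The median difference went from 0.19 in the dimmest class through 0.11 and 0.03 to −0.06 in the brightest. Against replicate 3 alone it went from 0.14 to −0.02, and the share called was 15.4% higher and 0% lower in the dimmest class and 2.07% and 6.05% in the brightest. In 9 of the 388 higher promoters no probe was above background in both channels on any array of at least 1 group, and for these only a bound exists. Probe length followed the same order. Designers lengthen probes where the sequence is rich in A and T, to keep the melting temperature even. In the quintile of promoters with the longest probes (mean 51.6 to 60 bases) 7.71% were called higher and 0.282% lower, and in the quintile with the shortest (45 to 46.4 bases) 0.341% and 3.91%. With loess the median difference was −0.02 in the longest class and 0.01 in the shortest, the opposite order. The part of signal and of probe length in the calls was not tested.

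**Figure D3:**
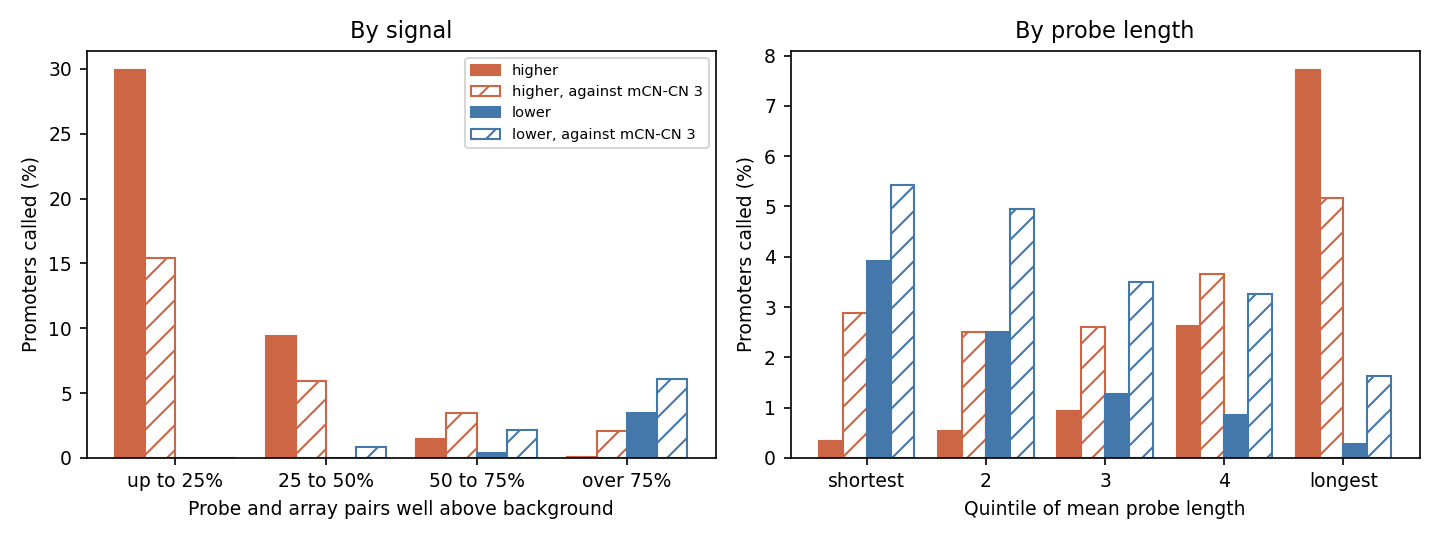
Share of promoters called higher (orange) or lower (blue) in the mLP-CN group, by the percentage of probe and array pairs well above background (left) and by quintile of mean probe length (right). Filled bars are the comparison with all mCN-CN arrays and hatched bars the comparison with mCN-CN replicate 3 in the same scan. Higher calls fall from 29.9% to 0.0935% as signal rises, and lower calls go the other way.

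The starting methylation level was taken from the 6 mLP-LP and mLP-HP arrays of the series (offspring of protein-restricted dams reared on 9% and 40% casein), because these do not enter the difference. In the lowest decile of promoters by this level (log2 ratio up to −0.51) the median difference between mLP-CN and mCN-CN was 0.04, and in the highest decile (0.38 and above) it was −0.04. The share called higher was 4.67% in the lowest decile and 0.436% in the highest, and the share called lower was 0.872% and 2.86%. Each array was then described by the median of the highest decile minus the median of the lowest. This contrast was 1.12, 1.16, and 1.01 on the mCN-CN arrays and 0.97, 1.07, and 1.04 on the mLP-CN arrays. The groups overlapped, and replicate 3 lay among the mLP-CN arrays of its scan. The difference in group means was −0.07 (exact two-sided permutation test over 6 arrays, p = 0.3, where the smallest possible p is 0.1).

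Inside the scan the slope with starting level was not seen. Against replicate 3 the median difference was 0.02 in the lowest and 0.02 in the highest decile, and against replicates 1 and 2 it was 0.06 and −0.07. Replicate 3 minus replicates 1 and 2, with no difference in diet, gave 0.04 and −0.10. Higher calls against replicate 3 were 3.61% in the lowest decile and 5.67% in the highest, the other way round from the comparison with all mCN-CN arrays. Low level and low signal went together. Promoters in the lowest decile had a median of 47.6% of pairs above background, and those in the highest had 88.9%. Among promoters with at least 50% of pairs above background, the lowest decile had a median difference of −0.03 with 0.775% called higher, and the highest decile −0.04 with 0.375%.

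**Figure D4:**
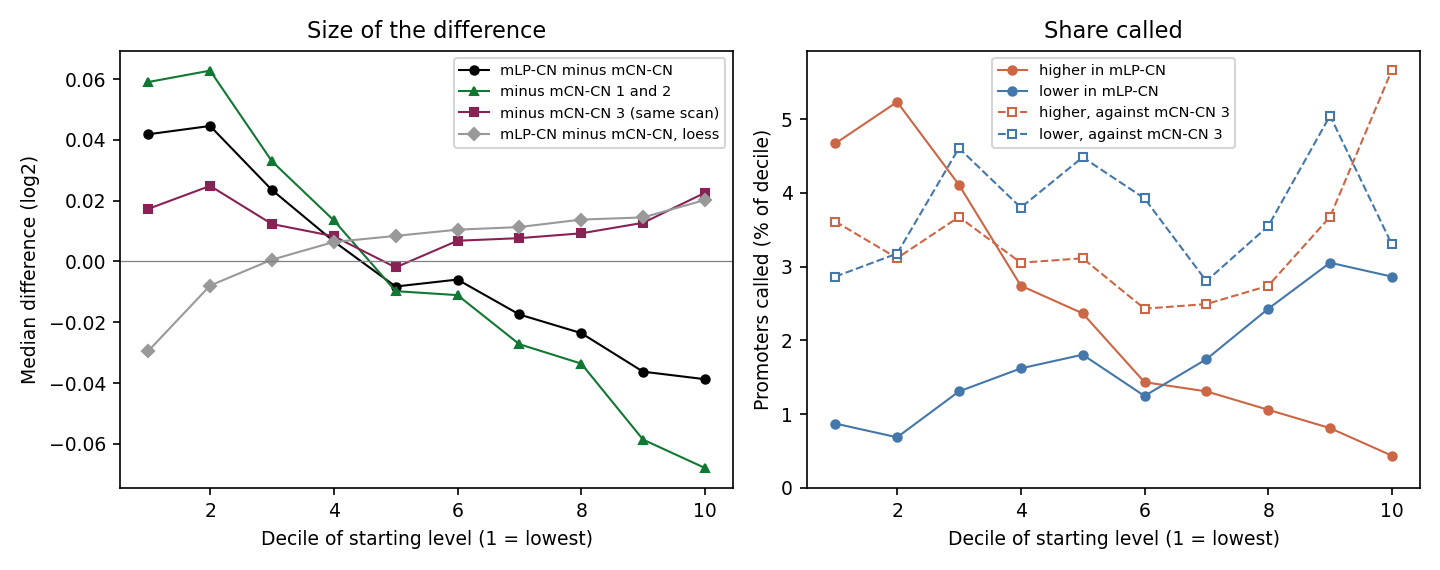
Left, median difference in log2 ratio by decile of the starting level, against all mCN-CN arrays (black circles), replicates 1 and 2 (green triangles), and replicate 3 of the same scan (purple squares), and after loess against all mCN-CN arrays (grey diamonds). Right, share of each decile called higher (orange) or lower (blue), with dashed lines for the comparison with replicate 3. The fall from 0.04 to −0.04 in the black line is 0.06 to −0.07 against replicates 1 and 2 and is not seen against replicate 3.

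By chromosome, X held the highest share of higher calls, with 43 of its 560 promoters (7.68%) higher and 2 (0.357%) lower. On the autosomes together 2.23% of promoters were higher and 1.80% lower. The mean log2 ratio of X was 0.03, 0.04, and 0.04 on the mCN-CN arrays and 0.09, 0.08, and 0.09 on the mLP-CN arrays. The groups did not overlap and differed by 0.05, and within the scan X differed by 0.04. The difference was −0.003 with Agilent's processed signals and 0.003 after loess. With median centering (−0.04) and removal of dim probes (−0.08) X was lower in the mLP-CN group, as was every other chromosome, and the median difference of all promoters moved to −0.08 and −0.10. Relative to the autosomes of the same array, X was higher by 0.07, 0.07, and 0.09 in the mCN-CN group and by 0.13, 0.12, and 0.13 in the mLP-CN group. This relative difference of 0.05 (exact permutation test, two-sided, n = 3 per group, p = 0.1, the smallest possible) was 0.07 without background correction and with the authors' values, 0.03 with median centering, and 0.02 without dim probes, each with no overlap. It was 0.009 with processed signals and −0.002 after loess.

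Promoters of X were dimmer than those of the autosomes, with a median of 66.7% against 74.2% of pairs above background. The shares are therefore given within classes of signal. Where at most 25% of pairs were above background 61.9% of 21 X promoters were called higher against 27.4% of 288 autosomal promoters. In the class of 25 to 50% the shares were 20.0% of 105 and 8.85% of 1989, and in that of 50 to 75% they were 3.57% of 252 and 1.38% of 5866. Above 75% they were 0% of 182 and 0.0965% of 7253. Within the scan the shares in these 4 classes were 33.3% and 14.2%, 7.62% and 5.83%, 3.17% and 3.48%, and 2.75% and 2.05%.

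Of the other chromosomes, 8 (4.02%), 3 (3.55%), and 17 (3.38%) had the next highest shares of higher calls, and chromosome 20 (2.74%) and 6 (2.57%) the highest shares of lower calls among the placed chromosomes. The chromosome means of the groups did not overlap for 8 of 22 units (the autosomes, X, and unplaced sequence). They were higher in the mLP-CN group on 3, 8, 13, 14, 17, and X and lower on 1 and unplaced sequence. Apart from X and unplaced sequence (−0.03) these differences were 0.02 or less in size. With 3 arrays against 3 the exact permutation test cannot go below p = 0.1, and after adjustment over the 22 the lowest p was 0.275. The number of units without overlap was 19 without mCN-CN replicate 3 and 13 without mLP-CN replicate 5, 14 against replicate 3 alone, 0 with processed signals, and 2 after loess. With median centering, and with dim probes removed, all 22 were lower in the mLP-CN group, and with the authors' values 18 were lower and only X was higher without overlap.

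**Figure D5:**
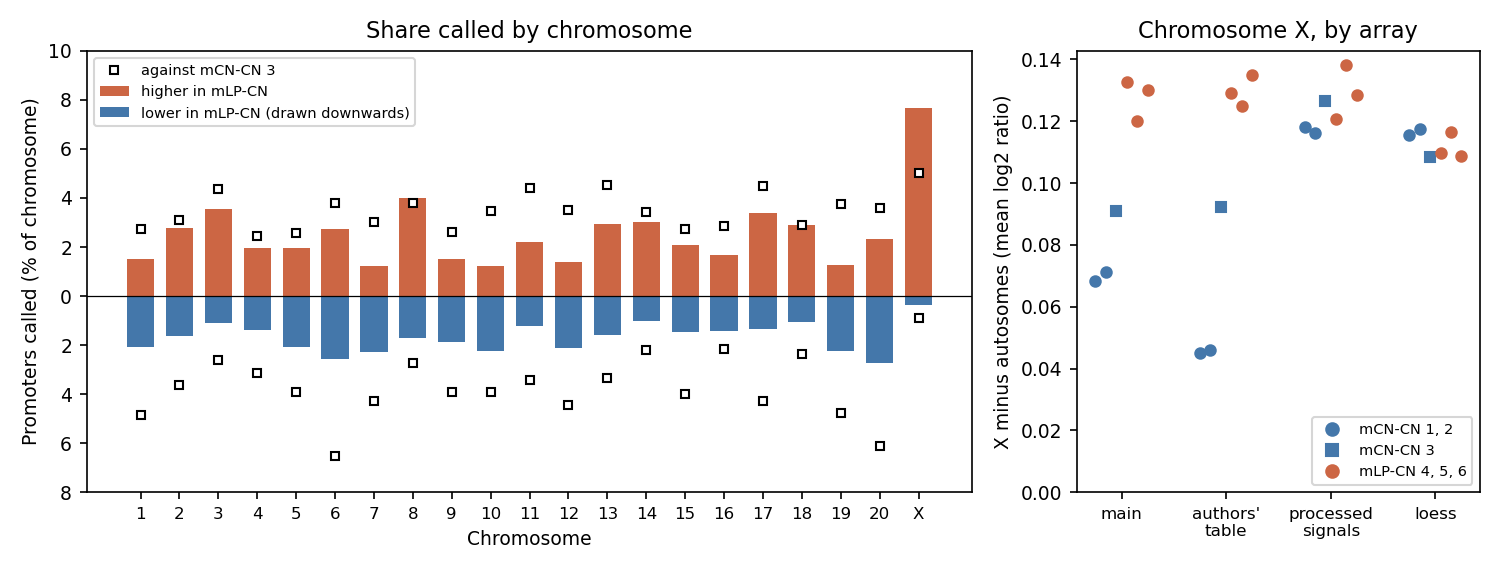
Left, percentage of the promoters of each chromosome called higher (orange, upwards) or lower (blue, downwards) in the mLP-CN group, with open squares for the comparison with mCN-CN replicate 3. Right, mean log2 ratio of chromosome X minus that of the autosomes on each array, under 4 ways of processing. X has 7.68% higher, and its arrays separate by group in the first processing and the authors' table but overlap with processed signals and after loess.

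Some called promoters lay close together. An adjacent promoter within 100000 bp was higher for 7.47% of the higher promoters and for 3.18% of all promoters. Only the next promoter on each side was looked at. For lower promoters the shares were 6.36% and 2.55%. The windows of 1000000 bp with the most calls were picked after their values were seen and are given as a description. Chromosome 3 from 69020780 to 69998592 held 45 promoters, of which 8 were higher, and from 72088037 to 72987554 it held 31, of which 7 were higher. In the first of these the median log2 ratio of the promoters was −0.40, −0.40, and −0.34 on the mCN-CN arrays and −0.26, −0.30, and −0.26 on the mLP-CN arrays. Long probes (median 56.8 bases) and 40.0% of pairs above background mark it as a dim stretch, and after loess its median difference was −0.03. At the end of X, from 154167104 to 154756427, 5 of 7 promoters were higher, and 0 of these 7 were called higher within the scan. Their median difference was 0.21 against all mCN-CN arrays and 0.16 against replicate 3.

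The densest window of lower calls was of another kind. On chromosome 5 from 78052119 to 78823746, 4 of 9 promoters were lower, and 4 were lower within the scan. Its median log2 ratio was −1.98, −2.00, and −2.04 on the mCN-CN arrays and −2.14, −2.25, and −2.17 on the mLP-CN arrays, with no overlap. The mLP-LP and mLP-HP groups had −2.11 and −2.01. This is far below the limit of the lowest decile, while 75% of its pairs were above background. The median difference was −0.22 against all mCN-CN arrays, −0.21 against replicate 3, −0.16 after loess, and −0.05 with processed signals.

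Within promoters the difference was spread over the tiled sequence. Distances were taken in the 15849 promoters of at most 5000 bp. In the higher promoters the mean difference of a probe was 0.28 within 250 bp of the center, 0.24 at 250 to 500 bp and at 500 to 750 bp, and 0.23 at 750 to 1000 bp. In the lower promoters the corresponding values were −0.26, −0.28, −0.26, and −0.24. The center of a tiled promoter is not the start site, which the files do not give. A median of 81.8% of the probes of a higher promoter and 83.3% of a lower one had the direction of the promoter. Every probe did in 60 of the 388 and 35 of the 283. Over all promoters the median share of probes in the more frequent direction, whichever it was, was 62.5%. All probes went up or all went down in 199 of the 16055. The calls rest on the same probes, so this is a description. Over all promoters the mean difference was 0.005 within 250 bp, −0.01 at 250 to 500 bp and at 500 to 750 bp, −0.006 at 750 to 1000 bp, 0.01 at 1000 to 1500 bp, and −0.03 beyond.

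In the smoothed log2 ratios, the mLP-CN group had 4178 hypermethylated and 4153 hypomethylated regions (DMRs), by a one-sided Kolmogorov-Smirnov test of probes in windows of 1500 bp. This test treats neighboring probes as independent and takes no account of the spread between arrays. Replicate 3, compared in this way with the other mCN-CN arrays, gave 4238 and 4247. Between the maternal diets the median DMR covered 5 probes, and 701 bp if hypermethylated or 685 bp if hypomethylated, with median differences of 0.20 and −0.18. A hypermethylated DMR was found in 23.5% of all promoters and a hypomethylated one in 24.2%. Without smoothing there were 1287 DMRs in all.

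Taken channel by channel, limma called 0 promoters in the MeDIP signal (596 at an unadjusted p under 0.05) and 0 in the input signal (538 unadjusted), each normalized on its own. With the scan as a block, 1142 promoters passed in the MeDIP channel and 280 in the input channel. The block leaves replicate 3 as the only mCN-CN array set against the mLP-CN arrays, so these counts are a description. Input DNA is not selected for methylation. Its counts are given beside those of the MeDIP signal, and the difference between the channels was not tested.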

How the data were processed

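Kidney DNA was hybridized to 12 two-color promoter arrays, and the 3 mCN-CN and 3 mLP-CN arrays were compared. What the authors deposited for each array came from Agilent Feature Extraction 11.0.1.1 and holds median pixel intensities of spot and local background for Cy5 (immunoprecipitated DNA) and Cy3 (input), not corrected. The same deposited files hold processed intensities, corrected for background and scaled between dyes, and flags per spot. A further table by the authors gives log2 values for every probe, for which the Methods name median centering, quantile normalization, and smoothing. Its scale and centering are not stated in the file, and array medians were −0.03 to 0.02. It was used as an alternative. The number of arrays limits precision.

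Median signals were corrected with limma 3.58.1 (R 4.3.3; normexp, offset 50), and log2(Cy5/Cy3) was median centered and quantile normalized over all probes. Control spots were left out, and spots with an outlier flag were set missing after normalization, since removing them before it shifted replicate 3. Probes starting within 1000 bp of each other were joined to 16174 promoters, of which 16055 had at least 3 probes and were tested on probe means. A missing spot was handled through deviations from the probe's mean. Limma was fitted to all 12 arrays by group (8 residual degrees of freedom, median residual SD 0.0755), or by group and scan (5 degrees of freedom), and p-values were adjusted over all promoters (Benjamini-Hochberg, threshold 0.05). A scan is a run of the scanner in the file headers. DMRs were called in Python 3.11.15 (numpy 2.4.6, scipy 1.17.1) on values smoothed with linear weights over 1000 bp, where 2 or more adjacent probes reached a −log10 p of 2, and were merged within 500 bp. Both scripts were tested on simulated data with independent normal noise and no scan effect. Limma recovered 55% of 100 promoters changed by 0.3 (log2) and 92% of 100 changed by 0.5, with 6 false calls. Such data cannot show how scan or neighboring probes affect the calls.

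Promoters named in the text have an adjusted p under 0.05, groups that do not overlap, and at least 50% of probe and array pairs well above background. They are the 2 highest and 2 lowest by difference, and the same among those past the threshold in the same direction with and without the scan block. The comparison, the lists, and the rules were chosen with earlier results of these data known. Gene names, start sites, CpG density, and sequence were not analysed here, since positions are on rn4 and the tables at hand are on another build. Alternatives covered signals, background, normalization, dim probes, controls, and arrays left out. Keeping outlier spots, removing them before normalization, and scaling the spread were added after seeing the data.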

Additional observations from a re-analysis of the deposited data

How the results depend on the processing

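No paired analysis was made, because the groups came from different dams and the labels pair no arrays. The count of 671 promoters was 2140 with median centering only, 381 without background correction, 408 in the authors' table, 246 with the 6 arrays alone, 4315 with array weights, 1142 with the scan as a fixed block, and 0 with processed signals and after loess. Leaving out single arrays gave 26 to 2050. Chosen after seeing the data, equal spread gave 3526, and processed signals with equal spread 0 (669 unadjusted, limma). The 1142 promoters within the scan were 3797 with median centering only, 711 without background correction, 460 with processed signals, 654 after loess, 465 in the authors' table, 389 with the median over probes, and 496 with the 6 arrays alone. Added settings gave 1857 when outlier spots were removed before normalization, 3695 with equal spread, and 541 with processed signals of equal spread. Of the calls within the scan 47.2% were higher in the first fit, 68.3% after loess, 34.4% with the median over probes, 33.8% in the authors' table, 15.1% without dim probes, 12.2% with outlier spots removed first, 11.5% with processed signals, 9.69% with median centering, and 4.87% and 6.28% with equal spread of median and processed signals. The scan block took the MeDIP channel from 0 to 1142 and the input channel from 0 to 280. DMRs numbered 1287 without smoothing, 4257 at −log10 p of at least 3, and 4141 where arrays did not overlap. The contrast by starting level turned from −0.0682 to 0.0478 after loess, 0.0632 without dim probes, and 0.0204 against replicate 3 alone. Chromosome units without overlap went from 8 to 0 with processed signals, 22 with median centering and without dim probes, 2 after loess, 19 in the authors' table and against replicates 1 and 2, and 14 against replicate 3, with 8 to 19 when single arrays were left out. The center-to-flank difference of probes was −0.00822, and 0.0137 against replicate 3. For the 5 named promoters the direction held in all 104 recomputed values, and 23 no longer passed the threshold. These promoters were picked for groups that do not overlap, so leaving out single arrays could not turn their direction. The cause of these changes was not tested. The number of arrays, 3 per group, limits precision. Many of the 388 higher promoters were near background. Their median raw Cy5 intensity, with background included, was no higher in the mLP-CN group, whose arrays were dimmer over all promoters too. This comparison does not carry over to the signal above background.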
